A study of Mus musculus with 18 samples.

Results

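The Slc25 genes encode the mitochondrial carrier family. Members were the genes of the comparison table whose symbol is Slc25a followed by a number, and 38 of its 12019 genes met this rule. RefSeq lists 47 mouse symbols of this form. Slc25a51 stands in the table under its older symbol Mcart1 and is described separately, and Slc25a2, Slc25a18, Slc25a27, Slc25a31, Slc25a41, Slc25a43, Slc25a53 and Slc25a54 were not analysed here. Livers came from C57BL/6J mice after 8 weeks on a regimen begun at 21 weeks of age. The labels list 3 libraries from mice under 30% caloric restriction (CR), 3 from mice given rapamycin at 42 mg/kg/day, 3 from mice given TM5614 at 20 mg/kg/day, 3 from mice given metformin at 37.5 mg/kg/day, and 6 from the ad libitum control (AL). The compounds were mixed into chow. The design text speaks of 30 mice, while the libraries of its groups add up to 18. Rapamycin inhibits the kinase mTOR, metformin lowers blood glucose, and TM5614 is an inhibitor of the plasminogen activator inhibitor PAI-1. All mice were of the C57BL6 genotype in the labels, which name no allele or sex, and the tissue was whole perfused liver, not sorted cells.

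Carriers of this family sit mostly in the inner mitochondrial membrane and exchange nucleotides, phosphate, organic acids, amino acids, acylcarnitines and cofactors between the matrix and the cytosol. In hepatocytes they link the urea cycle, gluconeogenesis, fatty acid oxidation and lipid synthesis, whose steps are divided between the matrix and the cytosol. A few members sit elsewhere, such as the peroxisomal carrier Slc25a17 and the outer membrane protein Slc25a46.

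The values are group means of normalized counts, that is, counts scaled by the authors for the depth of each library, with a log2 fold change against AL and an adjusted p. A gene was called where the authors' deposited table gives an adjusted p under 0.05. No library could be tied to a column of values, so every value below is a group mean and carries no SD. The number of libraries behind each mean is likewise not given: the smallest mean above 0 was 0.299 to 0.322 in the 4 groups of 3 labelled libraries and 0.315 in AL, which has 6. The labels do not say whether mice shared cages or batches, so the p-values measure only the spread between these libraries. Among markers of other cells, 4 of 10 Kupffer cell and macrophage markers fell under CR (summed means 1008 under CR and 2041 in AL), 2 of 8 sinusoidal endothelial markers fell under rapamycin (1107 and 1794), and the pancreatic acinar markers summed to 2.49 to 4.59 in the 4 treated groups against 246 in AL. Over all genes, 9.24% fell under CR and 0.675% under rapamycin. The endothelial markers were also low under metformin, with a sum of 1211 and none called. Their median log2 fold change was -0.70 there and -0.73 under rapamycin. The Kupffer sums were 1430 to 1602 under the 3 compounds, with none called. Among these markers Marco had 261 in AL and 27.3 to 44.5 in the 4 treated groups, with no adjusted p, and weighs on the sums. The median log2 fold change of the list was -0.27 under rapamycin, -0.29 under TM5614 and -0.37 under metformin. The hepatocyte markers summed to 1077550 under CR and 847852 in AL, 1 of 7 rising and 1 falling. Most of these sums was Alb, the one that rose (858112 and 606485), while Ttr fell (36686 and 46541). The median log2 fold change of the 7 was -0.07, so the higher sum does not describe the list as a whole. The part of these cell types in the carrier values was not tested, and in whole liver fewer cells of a type and less RNA per cell cannot be told apart.

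Promoters of 5 called carriers are shown as examples of the members called: Slc25a34 had the largest rise under CR, Slc25a20 was called under both CR and rapamycin, and Slc25a33, Slc25a13 and Slc25a1 hold an E-box, of which Slc25a33 and Slc25a13 rose and Slc25a1 fell under CR. Each window runs from 250 bases before to 50 bases after the annotated start (RefSeq, build GRCm38.p6), is 300 bases long, and is written 5′ to 3′ on the strand of the gene. Capitals mark the E-box CACGTG, to which clock and carbohydrate-response factors bind, and the nuclear receptor half-site AGGTCA or its reverse complement. The windows are chr4:141623785-141624084 (minus strand) for Slc25a34, chr4:149774218-149774517 (minus) for Slc25a33, chr6:6217124-6217423 (minus) for Slc25a13, chr16:17928170-17928469 (minus) for Slc25a1 and chr9:108661886-108662185 (plus) for Slc25a20, the last of which holds neither motif.
Slc25a34: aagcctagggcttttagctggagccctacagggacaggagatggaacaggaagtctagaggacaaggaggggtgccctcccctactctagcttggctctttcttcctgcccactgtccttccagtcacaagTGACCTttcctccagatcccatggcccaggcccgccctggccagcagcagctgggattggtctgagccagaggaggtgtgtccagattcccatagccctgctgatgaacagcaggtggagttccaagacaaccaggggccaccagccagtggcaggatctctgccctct
Slc25a33: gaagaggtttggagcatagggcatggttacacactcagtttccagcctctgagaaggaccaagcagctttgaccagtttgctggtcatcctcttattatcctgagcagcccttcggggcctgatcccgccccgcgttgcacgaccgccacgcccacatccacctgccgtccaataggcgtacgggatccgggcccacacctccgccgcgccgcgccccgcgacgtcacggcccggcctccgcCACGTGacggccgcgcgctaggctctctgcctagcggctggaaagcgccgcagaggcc
Slc25a13: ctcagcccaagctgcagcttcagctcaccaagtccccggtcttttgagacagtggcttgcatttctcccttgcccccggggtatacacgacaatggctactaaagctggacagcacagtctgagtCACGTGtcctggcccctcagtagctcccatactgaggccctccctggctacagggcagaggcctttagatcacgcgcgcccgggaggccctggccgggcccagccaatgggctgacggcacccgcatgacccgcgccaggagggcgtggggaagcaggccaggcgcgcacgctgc
Slc25a1: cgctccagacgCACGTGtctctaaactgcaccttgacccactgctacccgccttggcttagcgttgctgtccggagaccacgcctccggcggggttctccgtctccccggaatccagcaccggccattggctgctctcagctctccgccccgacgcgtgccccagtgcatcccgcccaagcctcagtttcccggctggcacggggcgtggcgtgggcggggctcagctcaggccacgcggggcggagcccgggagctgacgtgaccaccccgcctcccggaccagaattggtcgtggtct
Slc25a20: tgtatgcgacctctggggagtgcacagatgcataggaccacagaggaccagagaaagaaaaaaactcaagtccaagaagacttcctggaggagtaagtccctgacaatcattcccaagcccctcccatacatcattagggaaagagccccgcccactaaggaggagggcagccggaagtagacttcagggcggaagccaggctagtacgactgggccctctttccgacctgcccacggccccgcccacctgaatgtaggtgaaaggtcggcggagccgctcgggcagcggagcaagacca
Counted from the annotated start, the first base of the E-box is at -8 in Slc25a33, -125 in Slc25a13 and -239 in Slc25a1, and that of the half-site of Slc25a34 is at -119. RefSeq gave 40 promoter windows for 31 of the 38 members, some of them overlapping windows of the same gene, and 11 windows for the 11 called members. On both strands, CACGTG was found in 7 of 40 member windows (a pair of them of Slc25a14, and others of Slc25a15 and Slc25a36, none of which was called), 3 of the 11 windows of called members and 7.15% of all 32851 promoter windows. AGGTCA was found in 4 of 40, 1 of 11 and 16.3%, and its direct repeat with 1 free base between the copies, bound by PPAR and HNF4 factors, in 0, 0 and 0.0396%. AGGTCA is part of that repeat, so the searches overlap. The FOXO element GTAAACA (3.65% of all windows) and the SREBP element TCACNCCAC (1.24%) were in none of the 40, and the NRF1 element, GCGC and TGCGC with 1 free base between them, was found only in that of Slc25a3 (4.60% of all windows). The cAMP response half-site TGACG was in 12 of 40, 4 of 11 and 20.8%. The promoter box CCAAT was in 21 of 40 (37.4% of all windows), GGGCGG in 34 of 40 (35.7%) and TATAAA in 1 of 40 (13.6%). Median GC content was 60.0% in the windows of called members, 59.3% in those of all members and 52.7% in all windows.

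Caloric restriction changed 10 of the 38 carriers, 8 upward and 2 downward. That is 26.3% of the members, where 19.0% of the 11760 genes with an adjusted p were called; the members' shares by direction were 21.1% higher and 5.26% lower, beside 9.74% and 9.24% of all genes. The median log2 fold change was 0.19 over the members and 0.01 over all genes of the authors' deposited table, and 26 of 38 members lay above 0 (68.4%, against 51.2% of all genes). A rise of at least 0.5 or a fall of that size was found in 6 of 38 members (15.8%) and in 27.4% of all genes, and the difference between these shares was not tested. The CR mean was the highest of the 5 group means for 20 members and the lowest for 10. The same counts were not made over all genes, so they do not set the family apart.

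**Figure D1:**
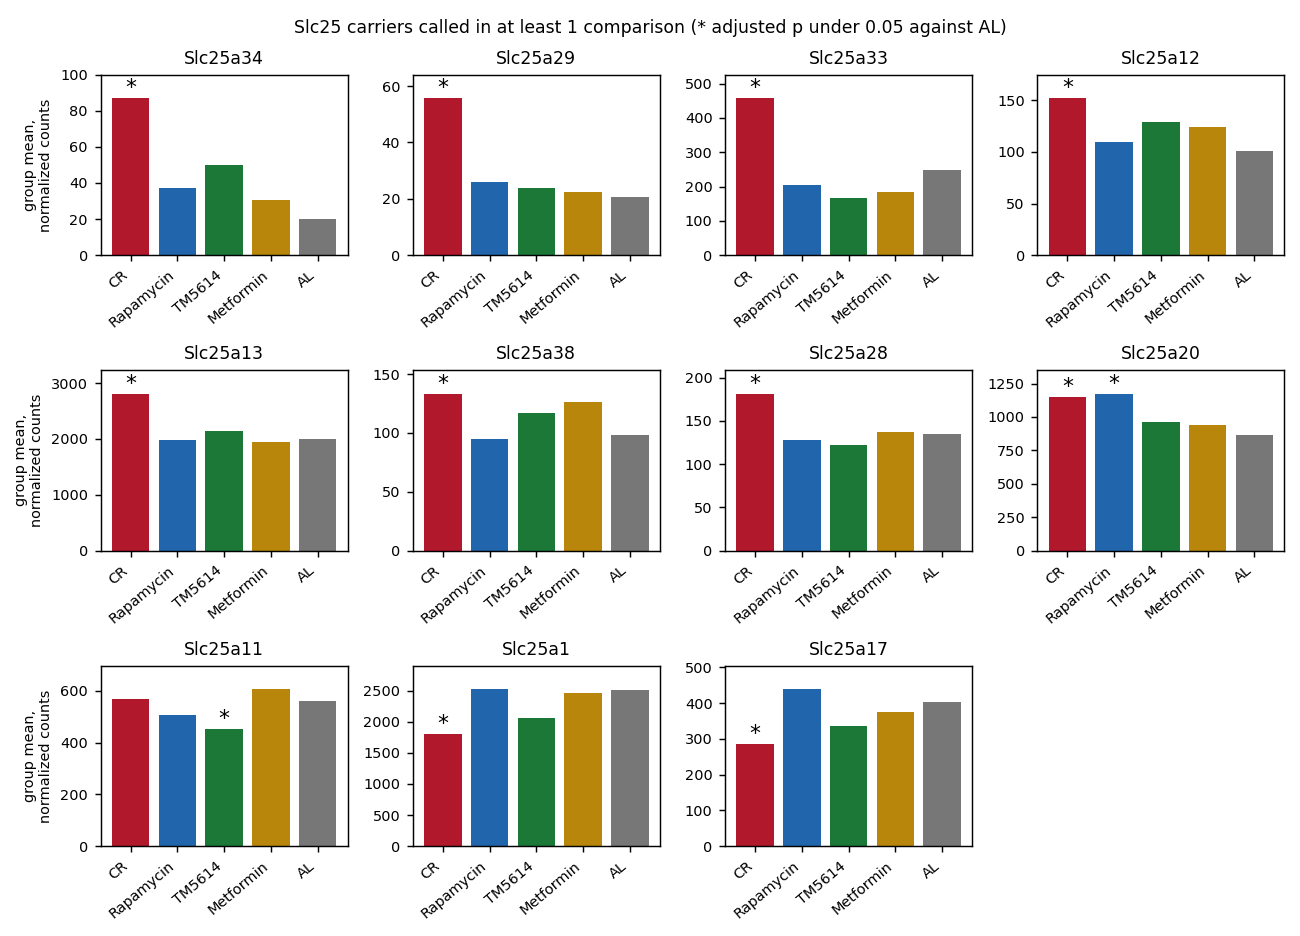
Group means of normalized counts (vertical axis, from 0) for the 11 carriers called in at least 1 comparison, 1 bar for each of CR, rapamycin, TM5614, metformin and AL; asterisks mark an adjusted p under 0.05 against AL per the authors' deposited table. CR bars carry 10 of the 12 asterisks, Slc25a20 has a second under rapamycin, and that of Slc25a11 is under TM5614.

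The carrier of fatty acid oxidation rose under both CR and rapamycin. Slc25a20, the carnitine-acylcarnitine carrier, exchanges acylcarnitines entering the matrix for free carnitine. In the authors' deposited table Slc25a20 (chr9:108662088-108684641 in mm10, GENCODE vM21, plus strand) had means of 1147 under CR, 1174 under rapamycin, 959 under TM5614, 942 under metformin and 862 in AL. Its log2 fold change per the authors' deposited table was 0.41 under CR (adjusted p = 0.00414) and 0.45 under rapamycin (adjusted p = 0.0211). All 4 treated means lay above that of AL, but neither TM5614 (0.15, adjusted p = 0.523) nor metformin (0.13, adjusted p = 0.975) passed per the authors' deposited table. These comparisons share the AL libraries. Of the 4 genes listed for the carnitine shuttle, 3 rose under CR, 1 under rapamycin and 1 under TM5614. Over all genes, 9.74%, 0.714% and 2.01% rose in these comparisons. This list and the other lists of partner genes below were written with earlier results of these data known. Carnitine acetyltransferase (Crat) had means of 611 under CR, 549 under rapamycin and 304 in AL per the authors' deposited table (log2 fold changes 1.01, adjusted p = 2.76e-05, and 0.85, adjusted p = 0.00969). The carnitine uptake transporter Slc22a5 had 778 under CR, 347 under TM5614 and 175 in AL per the authors' deposited table (2.15, adjusted p = 1.61e-10, and 0.98, adjusted p = 0.0401). Cpt1a, which makes acylcarnitines at the outer membrane, had 0.87 under CR per the authors' deposited table (adjusted p = 5.74e-06).

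Among carriers of di- and tricarboxylates, the citrate carrier fell under CR and the oxoglutarate carrier under TM5614. Slc25a1 exports citrate, the cytosolic source of acetyl-CoA for fatty acid and sterol synthesis. Slc25a1 (chr16:17925223-17928219, minus strand) had means of 1802 under CR, 2522 under rapamycin, 2059 under TM5614, 2459 under metformin and 2506 in AL per the authors' deposited table. The CR mean was the lowest of the 5, 0.719 times that of AL (log2 fold change -0.48, adjusted p = 4.44e-05), and TM5614 had -0.28 (adjusted p = 0.0780) per the authors' deposited table. Of 6 genes listed for citrate formation and use, 5 fell and 1 rose under CR, where 9.24% of all genes fell and 9.74% rose. The cytosolic user of citrate, Acly, had means of 1379 under CR and 4747 in AL per the authors' deposited table, and fatty acid synthase (Fasn) had 1990 and 8505. Under TM5614 2 of the 6 fell (Acly, -0.66, and Fasn, -0.82, per the authors' deposited table) and under rapamycin the NADPH-forming malic enzyme Me1 rose (0.69, adjusted p = 0.0421). Over all genes, 1.95% fell under TM5614 and 0.714% rose under rapamycin.

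Slc25a11, which exchanges malate for 2-oxoglutarate in the malate-aspartate shuttle, had means of 569 under CR, 508 under rapamycin, 452 under TM5614, 607 under metformin and 563 in AL per the authors' deposited table. The TM5614 mean was the lowest (log2 fold change -0.32, adjusted p = 0.0212, per the authors' deposited table), and this was the single member called under TM5614, 1 of the 35 with an adjusted p (2.86%, where 3.96% of all genes were called, 2.01% higher and 1.95% lower). Slc25a11 (chr11:70644196-70647479, minus strand) shares 189 exonic bases with Rnf167 on the other strand. Rnf167 had means of 213 under TM5614 and 250 in AL per the authors' deposited table (-0.24, adjusted p = 0.437), and since the strand setting of the counting is not given, the reads of the shared stretch cannot be assigned to either gene. Slc25a10, the dicarboxylate carrier that exchanges malate or succinate for phosphate, ranged from 1524 under TM5614 (-0.32, adjusted p = 0.128) to 2395 under rapamycin (0.33, adjusted p = 0.188) per the authors' deposited table, with 1902 in AL. Slc25a21, a carrier of 2-oxoadipate, had means of 72.7 under CR, 93.0 to 108 under the 3 compounds and 89.6 in AL, and passed nowhere.

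Carriers of amino acids held 4 of the 8 rises under CR, out of 7 members, with none falling, where 9.74% of all genes rose and 9.24% fell. The roles were not tested against each other. Slc25a13 (citrin) and Slc25a12 (aralar) are the calcium-regulated aspartate-glutamate exchangers that complete the malate-aspartate shuttle and supply cytosolic aspartate to the urea cycle; citrin is the hepatic form. Slc25a13 (chr6:6041218-6217173, minus strand) had means of 2812 under CR, 1973 under rapamycin, 2147 under TM5614, 1942 under metformin and 1991 in AL per the authors' deposited table. CR alone passed for citrin (log2 fold change 0.50, adjusted p = 1.90e-05), and the other 3 treated means lay between 1942 and 2147. Slc25a12 (chr2:71271063-71367749, minus strand) had means of 152 under CR, 109 under rapamycin, 129 under TM5614, 124 under metformin and 100 in AL per the authors' deposited table (CR: 0.60, adjusted p = 0.0101). All 4 treated means of aralar lay above AL, but only CR passed. Per kilobase of transcript, the level of aralar was 0.0266 of that of citrin under CR and 0.0248 in AL. Per kilobase of coding sequence these ratios were 0.0540 and 0.0504. Of the 4 enzymes of this shuttle, cytosolic Got1 rose (means 6442 under CR and 3514 in AL) and mitochondrial Got2 fell (3802 and 4392) per the authors' deposited table, while Mdh1 and Mdh2 did not pass.

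Slc25a29, a carrier of basic amino acids such as arginine and lysine, had the second largest rise of the family. Its means per the authors' deposited table were 55.7 under CR, 25.8 under rapamycin, 23.8 under TM5614, 22.5 under metformin and 20.7 in AL. CR lay 2.69-fold above AL (log2 fold change 1.43, adjusted p = 4.30e-04), with the 3 compounds between 22.5 and 25.8. Slc25a29 (chr12:108825873-108835883, minus strand) and Slc25a47 (chr12:108836046-108856815, plus strand) lie head to head with 162 bases between them in GENCODE vM21, the only pair of members under 100 kb apart. Slc25a15, the ornithine carrier of the urea cycle, had means of 4158 under CR, 2785 to 3405 under the 3 compounds and 3621 in AL per the authors' deposited table and did not pass (CR: 0.20, adjusted p = 0.480). Per kilobase, Slc25a29 stood at 0.0233 of the level of Slc25a15 under CR and 0.00992 in AL, and per kilobase of coding sequence at 0.0132 and 0.00562. Among 6 urea cycle enzymes 2 rose under CR, argininosuccinate lyase (Asl, 1.08, adjusted p = 1.72e-05) and argininosuccinate synthase (Ass1, 0.55, adjusted p = 0.0176) per the authors' deposited table, and none fell. Over all genes, 9.74% rose and 9.24% fell.

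Slc25a38, the glycine carrier that feeds heme synthesis, had means of 133 under CR, 95.1 under rapamycin, 117 under TM5614, 127 under metformin and 98.1 in AL per the authors' deposited table. The CR mean was the highest (log2 fold change 0.44, adjusted p = 0.0389), and metformin had 0.37 with an adjusted p of 0.706 per the authors' deposited table. Slc25a38 (chr9:120110374-120124504, plus strand) is known for its part in red cell formation, and of 4 erythroid markers in the table Alas2 fell under CR while 3 globin genes had log2 fold changes of 0.89 to 1.37 that did not pass. The glutamate carrier Slc25a22 had 0.01 under CR and -0.41 under metformin (means 1446 under metformin and 1921 in AL), and Slc25a44, a branched-chain amino acid carrier, had -0.20 under CR; neither passed per the authors' deposited table.

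None of the 6 carriers of adenine nucleotides and phosphate was called in any comparison, where 19.0% of all genes were called under CR. Among so few members this count does not set the role apart. Slc25a5, the major ADP/ATP carrier of liver, had means of 3768 under CR, 3731 under rapamycin, 3409 under TM5614, 3616 under metformin and 3289 in AL per the authors' deposited table. All treated means were above AL, and the largest log2 fold change was 0.20 (CR, adjusted p = 0.165, per the authors' deposited table). GENCODE vM21 also lists the pseudogene Slc25a5-ps, so its reads may be split. The phosphate carrier Slc25a3 spanned 2371 (TM5614) to 2689 (CR) with 2471 in AL, a factor of 1.13 between its highest and lowest group mean. Slc25a4, the heart and muscle ADP/ATP carrier, had 72.9 under CR and 61.0 in AL (0.25, adjusted p = 0.652, per the authors' deposited table), and 4 skeletal muscle markers summed to 1196 under CR and 757 in AL without passing. Per kilobase Slc25a4 was 0.0125 of Slc25a5 under CR and 0.0119 in AL, and per kilobase of coding sequence 0.0193 and 0.0186. The calcium-dependent ATP-Mg/phosphate carriers Slc25a23 and Slc25a25 stood at similar levels per kilobase, 439 and 471 under CR and 494 and 472 in AL, while Slc25a24 stood at 4.35 and 3.00. Slc25a25 had means of 1209 under TM5614 and 1665 in AL per the authors' deposited table (-0.46, adjusted p = 0.699). Of the 17 ATP synthase genes, Atp5b alone rose under CR (0.27, adjusted p = 0.00299, per the authors' deposited table). In the list of 79 respiratory chain and ATP synthase subunits, 2 were called under CR, 0 under rapamycin, 1 under TM5614 and 0 under metformin, where 19.0%, 1.39%, 3.96% and 0.245% of all genes were called in the same comparisons.

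Among the 8 carriers of cofactors and other nucleotides, 1 rose and 1 fell under CR. That is close to the shares over all genes, of which 9.74% rose and 9.24% fell. Slc25a33 imports pyrimidine nucleotides for mitochondrial DNA and RNA synthesis. It had means of 458 under CR, 205 under rapamycin, 166 under TM5614, 183 under metformin and 249 in AL per the authors' deposited table. CR was 1.84-fold above AL (log2 fold change 0.88, adjusted p = 0.0224), and the 3 compounds lay below AL without passing (-0.28 to -0.58 per the authors' deposited table). Slc25a33 (chr4:149744036-149774277, minus strand) shares 281 exonic bases with the antisense gene Gm13068, whose counts were not analysed here. Slc25a36, the other pyrimidine nucleotide carrier, was low, with means of 6.83 to 13.0 in the 5 groups. Slc25a17, which carries coenzyme A and related cofactors across the peroxisomal membrane, had means of 287 under CR, 439 under rapamycin, 338 under TM5614, 374 under metformin and 403 in AL per the authors' deposited table. The CR mean of Slc25a17 (chr15:81318911-81360812, minus strand) was the lowest, 0.711 times that of AL (-0.49, adjusted p = 0.00317).

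Slc25a32, which carries folate and flavin into mitochondria, came closest to a call under metformin. Its means per the authors' deposited table were 292 under CR, 174 under rapamycin, 206 under TM5614, 153 under metformin and 278 in AL. The 3 compounds lay below AL and CR did not, but the metformin value missed the threshold (-0.87, adjusted p = 0.0548), as did rapamycin (-0.68, adjusted p = 0.107) per the authors' deposited table. Of 7 genes of one-carbon metabolism and S-adenosylmethionine, 3 rose and 1 fell under CR, where 9.74% of all genes rose and 9.24% fell. Mat1a, the hepatic methionine adenosyltransferase, had 50906 under CR and 20083 in AL, and the mitochondrial folate enzyme Mthfd1l had 37.9 and 6.97, per the authors' deposited table. The S-adenosylmethionine carrier Slc25a26 had means of 44.8 under CR and 50.6 in AL and did not pass (-0.17, adjusted p = 0.709). The coenzyme A carrier Slc25a42 (0.23 under CR) and Slc25a16 (0.21) did not pass per the authors' deposited table.

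The NAD carrier Slc25a51, listed as Mcart1, is outside the rule on symbols and was added after its older symbol was found in the table. Mcart1 had means of 1611 under CR, 1065 under rapamycin, 1425 under TM5614, 795 under metformin and 901 in AL per the authors' deposited table. CR lay highest (log2 fold change 0.84, adjusted p = 0.0420), and TM5614 had 0.66 with an adjusted p of 0.230. Counting it would make 11 called carriers under CR, 9 of them higher, where 19.0% of all genes were called and 9.74% rose. Mcart1 was chosen after seeing the data. The other family members with symbols of their own in the table, Ucp2, Mtch1 and Mtch2, were called nowhere, and the largest change among them was that of Mtch1 under TM5614 (-0.32, adjusted p = 0.0589, per the authors' deposited table).

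Of the 4 carriers of iron and glutathione, 1 rose under CR, where 9.74% of all genes rose. Among so few members this count does not set the role apart. Mitoferrin 2 (Slc25a28), which imports iron in most tissues, had means of 181 under CR, 128 under rapamycin, 123 under TM5614, 137 under metformin and 135 in AL per the authors' deposited table. CR alone passed (log2 fold change 0.43, adjusted p = 0.0410). Mitoferrin 1 (Slc25a37), the form of developing red cells, had 307 under CR and 218 in AL (0.50, adjusted p = 0.0570), close to the threshold per the authors' deposited table. Per kilobase, mitoferrin 1 was 0.623 of mitoferrin 2 under CR and 0.596 in AL, but 1.82 and 1.75 per kilobase of coding sequence, so that which of them stands higher depends on the length used. Slc25a39, the glutathione carrier, had 3736 under CR and 3161 in AL (0.24, adjusted p = 0.0541), and its homologue Slc25a40 had 20.5 and 31.9 (-0.64, adjusted p = 0.210), per the authors' deposited table. Slc25a28 lies at chr19:43663801-43674881 on the minus strand. Of 8 heme and iron-sulfur genes, Alas2 (-2.34, adjusted p = 4.59e-28) and the inner membrane transporter Abcb10 (-0.65, adjusted p = 1.46e-05) fell under CR per the authors' deposited table, and none rose. Over all genes, 9.24% fell.

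The largest rise of the family was that of Slc25a34, a carrier whose substrate is not settled. Slc25a34 (chr4:141618824-141623821, minus strand) had means of 87.1 under CR, 37.1 under rapamycin, 50.0 under TM5614, 30.4 under metformin and 19.9 in AL per the authors' deposited table. AL was the lowest of the 5 means, and CR was 4.36-fold above it (log2 fold change 2.13, adjusted p = 2.64e-04). Rapamycin (0.89, adjusted p = 0.510) and TM5614 (1.32, adjusted p = 0.104) did not pass, and metformin (0.61) has no adjusted p per the authors' deposited table. Adipocyte markers summed to 1356 under CR, 981 under rapamycin, 1201 under TM5614, 1272 under metformin and 923 in AL. Skeletal muscle markers summed to 1196, 815, 1044, 1168 and 757 in the same order. None of 4 was called in either list, and their part in the value of Slc25a34 was not tested.

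Slc25a47, a liver-enriched carrier, was the most abundant member per kilobase in AL and had the widest spread of group means among the 8 most abundant. Its means per the authors' deposited table were 10873 under CR, 7378 under rapamycin, 5141 under TM5614, 5833 under metformin and 8421 in AL. CR was highest and TM5614 lowest, a factor of 2.12, yet no comparison passed (CR: 0.37, adjusted p = 0.489; TM5614: -0.71, adjusted p = 0.215, per the authors' deposited table). Of the other carriers given no role in the grouping used here, Slc25a48 had 0.48, Slc25a45 had -0.28 and Slc25a35 had -0.39 under CR. None of these passed per the authors' deposited table. Slc25a35 was the lowest of all, with means of 4.44 to 7.96, and 1151 of its exonic bases overlap Rangrf on the other strand. The proteins related to uncoupling proteins, Slc25a30 and Slc25a14, and the outer membrane protein Slc25a46, which acts in mitochondrial shape, were called nowhere. Slc25a30 had 67.7 under CR, 111 under rapamycin, 127 under TM5614, 98.4 under metformin and 72.7 in AL, with no adjusted p under 0.575 per the authors' deposited table.

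**Figure D2:**
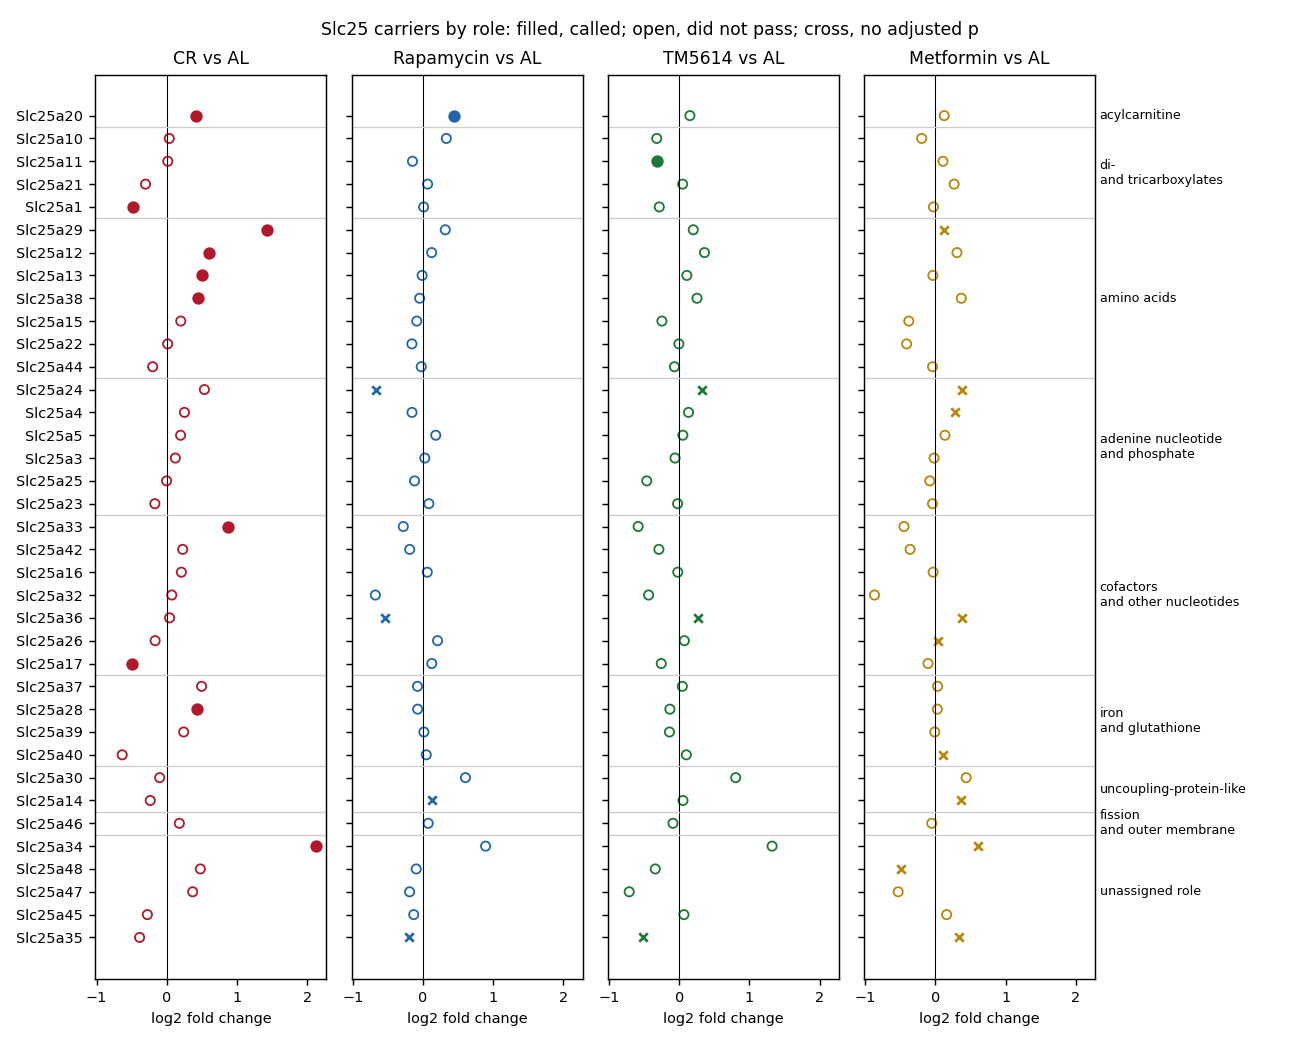
Log2 fold change of the carriers (horizontal axis), all but 1 of the 38, in CR, rapamycin, TM5614 and metformin against AL, with members grouped by role down the page; filled points were called, open points did not pass and crosses have no adjusted p per the authors' deposited table. Filled points number 10 under CR, 1 under rapamycin, 1 under TM5614 and 0 under metformin, and the amino acid carriers hold 4 of those under CR.

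The compounds called few carriers. Under rapamycin Slc25a20 was the single one among the 34 members with an adjusted p (2.94%, where 1.39% of all genes were called, 0.714% higher and 0.675% lower). Under metformin none of the 28 members with an adjusted p passed in the authors' analysis (all genes: 0.245%, of which 0.163% higher and 0.0816% lower), and the count at an unadjusted p under 0.05 cannot be given since the authors' deposited table holds adjusted values alone. The 10 members without an adjusted p under metformin include Slc25a34, Slc25a29 and Slc25a4. Of all summed means, 4.40% under metformin and 0.227% in AL came from Rn45s, the ribosomal RNA precursor. Without Rn45s the 38 carriers took 0.430% of the summed means under metformin and 0.493% in AL, beside 0.411% and 0.492% with it. Median log2 fold changes of the members were -0.00 under rapamycin, -0.01 under TM5614 and 0.03 under metformin, beside 0.00, -0.01 and 0.01 over all genes of the authors' deposited table. The 27 members called in no comparison ranged over -0.64 to 0.54 under CR, -0.68 to 0.60 under rapamycin, -0.71 to 0.81 under TM5614 and -0.87 to 0.44 under metformin on the log2 scale. Differences between interventions were not tested, since the table compares each with AL only.

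**Figure D3:**
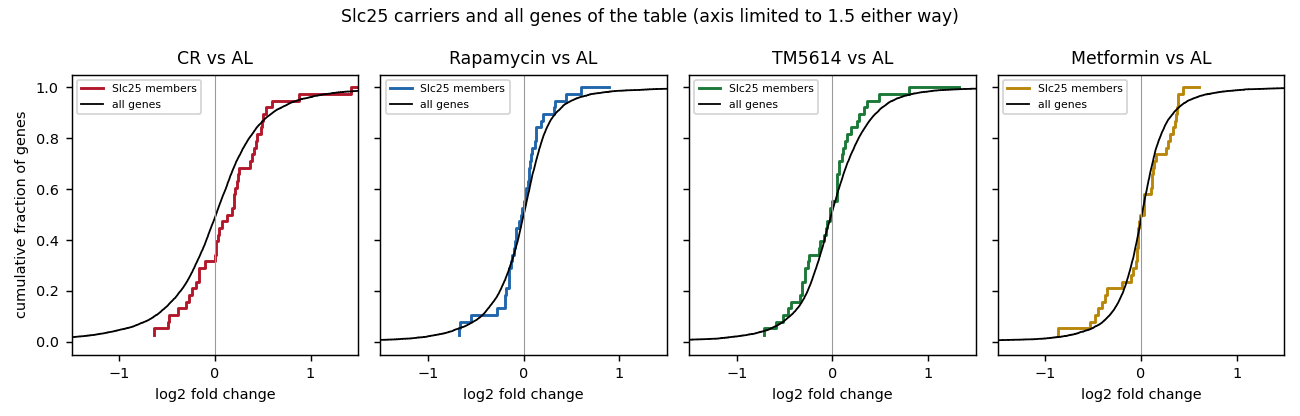
Cumulative fraction of genes (vertical axis) by log2 fold change against AL (horizontal axis) for the 38 carriers (coloured line) and all genes of the table (black line) in each comparison. Under CR the carriers' line runs right of that of all genes through the middle of the range, with medians of 0.19 and 0.01, and the value of Slc25a34 (2.13) lies outside the axis.

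Levels between carriers were compared as normalized counts per kilobase of the longest coding transcript. The 8 highest in AL were Slc25a47 (4456), Slc25a5 (2652), Slc25a39 (1876), Slc25a3 (1533), Slc25a1 (1504), Slc25a15 (1056), Slc25a10 (940) and Slc25a22 (683), all in counts per kilobase. They made up 76.5% to 78.7% of the family's summed level per kilobase in the 4 treated groups and 78.9% in AL. The same 8 led per kilobase of coding sequence, but in another order. By that length Slc25a15 stood at 4010 in AL, above Slc25a5 at 3679 and Slc25a39 at 2935. Neighbours such as Slc25a3 and Slc25a1 differed little in AL, and with no spread between libraries their order cannot be tested. Slc25a47 held 27.2% of the summed level under CR, 20.9% under rapamycin, 17.0% under TM5614, 18.3% under metformin and 23.9% in AL. Under TM5614 Slc25a5 stood at 2749 per kilobase and Slc25a47 at 2720, the one group in which Slc25a47 was not first by this length. Per kilobase of coding sequence Slc25a47 was first under TM5614 too, at 5528 against 3813 for Slc25a5. Of the called carriers Slc25a34, Slc25a29 and Slc25a12 were low, at 32.6, 28.2 and 24.0 per kilobase under CR and 7.46, 10.5 and 15.8 in AL. Together the 38 carriers took 0.520% of the summed means under CR, 0.479% under rapamycin, 0.423% under TM5614, 0.411% under metformin and 0.492% in AL. Which of TM5614 and metformin was lowest depends on Rn45s, since without it the shares were 0.423% under TM5614 and 0.430% under metformin.

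**Figure D4:**
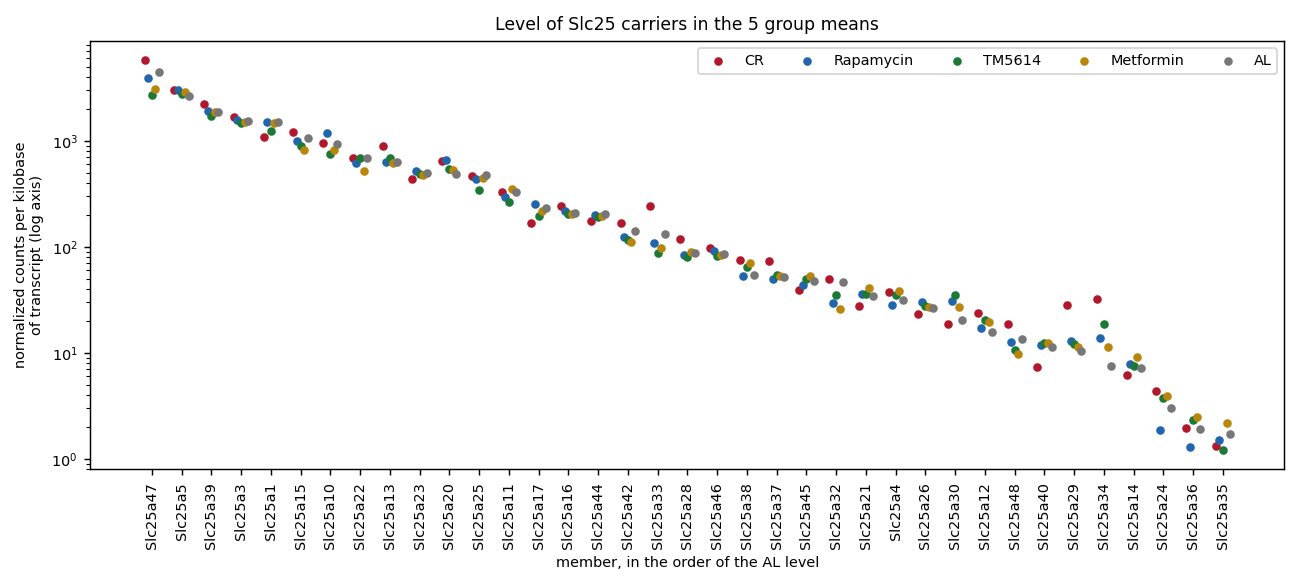
Level of the carriers, all but 1 of the 38, in normalized counts per kilobase of transcript (vertical log axis) with members in the order of their AL level, 1 point for each of the 5 group means and no error bars. The levels span 4456 to 1.73 per kilobase in AL, and the CR point stands well above the other 4 in Slc25a34, Slc25a29 and Slc25a33.

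Other genes of mitochondrial transport, taken from lists written with earlier results of these data known, were called as follows under CR. The counts stand beside 9.74% of all genes that rose and 9.24% that fell, and no list was tested against other genes. Both subunits of the mitochondrial pyruvate carrier rose: Mpc1, listed as Brp44l, had means of 1731 under CR and 1147 in AL (log2 fold change 0.59, adjusted p = 1.42e-06), and Mpc2, listed as Brp44, had 1708 and 1227 (0.48, adjusted p = 0.0124), per the authors' deposited table. Of the 3 outer membrane channels Vdac1 (0.27, adjusted p = 0.00806) and Vdac2 (0.31, adjusted p = 0.0371) rose per the authors' deposited table. Of 4 sideroflexins, Sfxn2 rose (0.56, adjusted p = 6.72e-04, per the authors' deposited table). In the list of carrier import and insertion, which holds 7 genes of the outer membrane TOM complex beside those of the TIM22 route into the inner membrane, 2 of 15 genes rose, the TOM receptor Tomm20 (0.40, adjusted p = 0.00287) and the chaperone Timm8a1 (0.52, adjusted p = 0.0105), and none fell per the authors' deposited table. In the calcium uniporter list 2 of 5 genes fell and none rose. Micu2, listed as Efha1, had means of 212 under CR and 353 in AL (-0.73, adjusted p = 2.60e-07) per the authors' deposited table. Of 7 nuclear regulators of mitochondrial genes, Esrra (0.94, adjusted p = 1.90e-06) and Ppara (1.32, adjusted p = 6.42e-08) rose under CR, and Ppara under TM5614 as well (0.79, adjusted p = 0.0146), per the authors' deposited table. Rapamycin and metformin called none of the genes in the pyruvate carrier, channel, sideroflexin, insertion, uniporter and regulator lists. Over all genes, 1.39% and 0.245% were called there, so a count of none does not set these lists apart. Under TM5614, 1 uniporter gene fell, and Ppara was the only other call in these lists. Over all genes, 1.95% fell and 2.01% rose under TM5614.

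**Figure D5:**
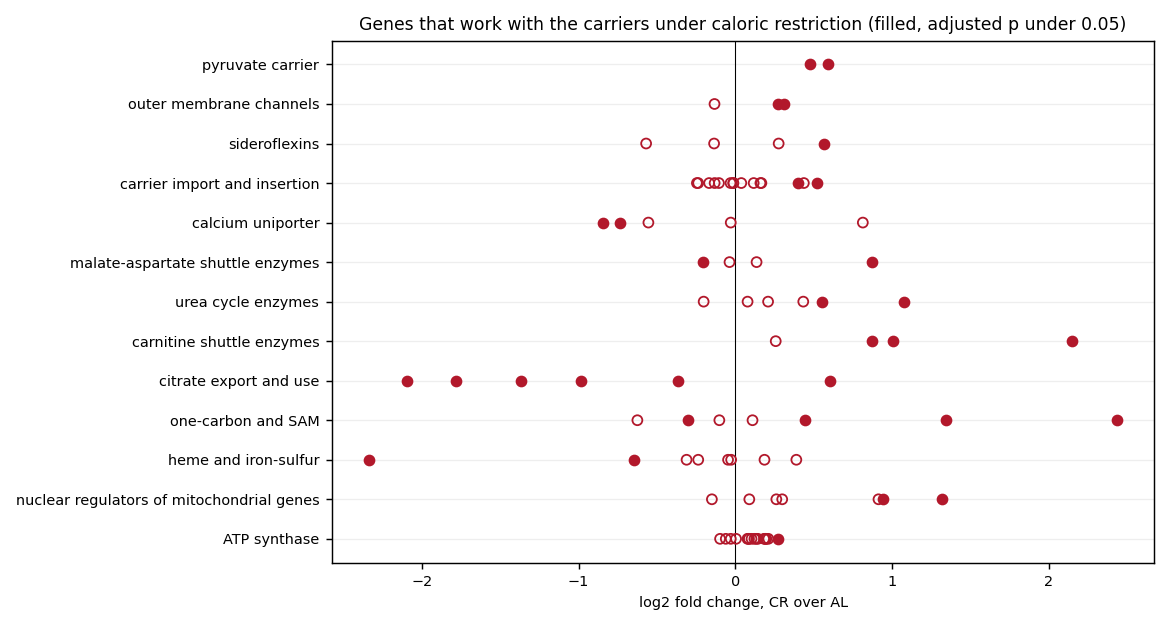
Log2 fold change under CR against AL (horizontal axis) for each gene of 13 lists of genes that act beside the carriers, 1 row a list; filled points have an adjusted p under 0.05 per the authors' deposited table. Both pyruvate carrier genes lie right of 0, 5 of 6 citrate genes left of it, and the called uniporter genes left of it.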

How the data were processed

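Liver RNA of 18 labelled libraries was sequenced after poly(A) selection, per the labels' protocols. Reads were aligned with HISAT2 2.0.5 to mm10, per the submitters' processing notes. Which program counted reads, with what genes and strand rule, is not given in the sources used here. Per the file headers, the deposited comparison table holds a normalized signal for each of 5 groups, which its values show to be group means of scaled counts, an adjusted p-value deposited for each of 4 interventions and a log2 fold change deposited by the authors. The authors used DESeq2, by the name of their deposited table. The deposited log2 fold changes of the members lay within 0.0249 of the log2 ratio of the group means. A further table has 18 columns per library whose names match no label, so no column was given a sample, and it was not used; depth per library is therefore unknown. A deposited fold change column for TM5441, which no label names, was not used either.

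Members and lists were chosen with earlier results of these data known. Values of a few single genes are not reported here, and counts include them. By the rule set for names, those called come in full, then the 8 of highest AL level, and of each partner list up to 4 called genes of smallest adjusted p. Calls are those of the authors (adjusted p under 0.05, over all genes); no further test and no SD were computed, and fits per library were planned but not run. Lengths, coordinates and overlaps are from GENCODE vM21 (mm10), older symbols from RefSeq synonyms of a single gene. Scripts used Python 3.11.15, pandas 2.3.3 and matplotlib 3.10.9, and the counting step was tested on simulated data. The motif search covered both strands.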

Additional observations from a re-analysis of the deposited data

How the results depend on the processing

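All 60 recomputed values of the called carriers kept their direction. The settings were the ratio of group means with and without a pseudocount of 1, and shares of the summed means. Centring on all genes or on respiratory chain subunits was also used. Each setting moved the values by less than the smallest called change, so no sign could reverse. That change, of Slc25a11 under TM5614, was -0.317 and became -0.187 when centred on respiratory chain subunits. The kept directions therefore do not show that the calls are robust. At an adjusted p under 0.01 the called members numbered 6 under CR, 0 under rapamycin and 0 under TM5614; at 0.1 there were 2 under TM5614 and 1 under metformin (Slc25a1 and Slc25a32 added). Asking for a difference of at least 0.5 on the log2 scale left 4 under CR, 0 under rapamycin and 0 under TM5614. The shares of all genes called at these settings were not counted. Whether the family differs from all genes there is therefore not known. With a mean of at least 100 the median log2 fold change of the members was -0.078 under TM5614 and -0.034 under metformin. Without that limit these were -0.012 and 0.03. Over all genes with a mean of at least 100 the medians were -0.015 under TM5614 and 0.010 under metformin. The cause of the members' shift was not tested. Requiring a mean of 10 or 100, or adding Ucp2, Mtch1 and Mtch2, left the counts within 1.5 times, as did adding Mcart1, chosen after seeing the data. The median log2 fold change under CR was 0.19. It was 0.12 with Ucp2, Mtch1 and Mtch2 added and 0.20 with a mean of at least 100, where that of all genes was 0.04. No paired analysis was possible because no column of values per library could be tied to a labelled replicate; leaving out single libraries was not run for the same reason. Depth per library is unknown, so carriers with means near 10 cannot be given a detection limit.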
